A study of Bos taurus with 18 samples.

Results

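An injection of progesterone (P4) was examined for its effect on the bovine endometrium in 3 Holstein cows, D, E and F, each serving as its own control. Endometrial cells were brushed from the uterine horn next to the corpus luteum on day 7 of an untreated synchronized cycle, and again on day 7 of a later synchronized cycle in which 100 mg of P4 had been given on day 4; day 0 was estrus. The comparison takes 6 of the 18 libraries of the series, 3 treated and 3 control, paired by cow. The untreated cycle of these cows was also brushed on day 4, and 3 other cows, A to C, were studied in the same way with 100 mg of 17-hydroxyprogesterone caproate and 10 mg of P4 (the 17-OHPC/P4 arm). All groups were Ovsynch-synchronized cows of a commercial dairy farm, so every control cycle was also hormonally programmed. The treated cycle came after the control cycle in every cow, and the control cycle alone was brushed on day 4, so treatment, cycle order and earlier brushing cannot be told apart.

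Progesterone from the corpus luteum acts through the nuclear receptor PGR, and in the cow an earlier rise of progesterone advances the endometrial programme that feeds the elongating embryo. In the early luteal phase the epithelium gradually loses PGR, divides less, and turns on lipid, transport and secretory genes. The endometrium also holds resident macrophages and lymphocytes, on which progesterone is generally regarded as an immune-restraining hormone.

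The 6 libraries held 30112365 to 37202396 counts each and 21830 to 22636 genes with at least 1 count. Mitochondrially encoded genes took 5.55% to 12.4% of the counts, with the highest share in the treated library of cow D. The control library of cow F stood apart: its Spearman correlation with the other 2 control libraries across genes was 0.932 and 0.927, against 0.973 between those 2. Treated and control libraries did not form separate groups, since the control and treated libraries of cow E correlated at 0.969 and the control library of cow F came closest to the treated library of cow D (0.962). Summed epithelial markers reached 4613 to 8114 CPM in all 6 libraries. CPM are counts scaled to a common library size with the TMM factors of edgeR.

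No gene passed the test. Of 19638 genes tested, 0 (0%) had an adjusted p under 0.05 in edgeR's quasi-likelihood test with Benjamini-Hochberg adjustment, and the smallest adjusted p was 0.991. An unadjusted p under 0.05 was reached by 881 genes (4.49%), 459 of them higher after P4 (2.34%) and 422 lower (2.15%). Levels were higher in the treated library of all 3 cows for 1956 genes (9.96%) and lower in all 3 for 1862 (9.48%). The 3 treated values lay above all 3 control values for 655 genes (3.34%) and below them for 474 (2.41%). Unadjusted p-values were spread almost evenly, at 881 to 1029 genes per bin of 0.05, around an even share of 981.9.

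The same fit called many differences between days in these cows. Day 7 against day 4 of the untreated cycle gave 1535 genes called higher (7.82%) and 1440 called lower (7.33%) in cows D to F. The treatment contrast had a median standard error (SE) of 0.37 on the log2 scale, with quartiles of 0.21 and 0.68, and 62.6% of genes had an SE under 0.5. The median log2 difference over all genes was 0.03.

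**Figure D1:**
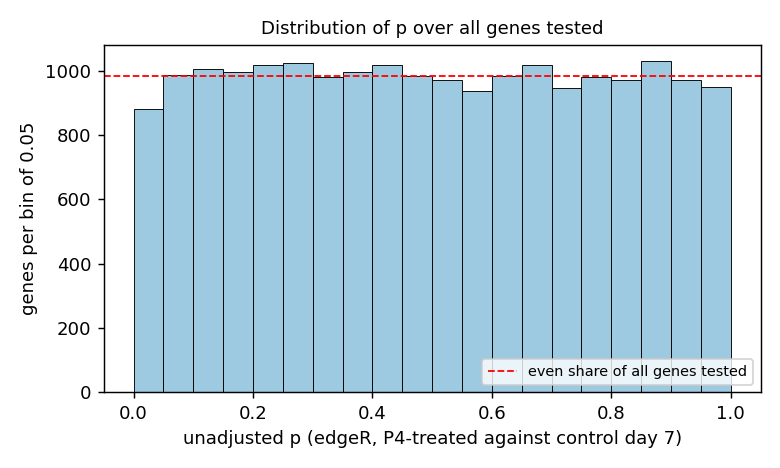
Number of genes (vertical axis) in each bin of 0.05 of the unadjusted edgeR p (horizontal axis) for P4-treated against control day 7, over the 19638 genes tested. The dashed line marks an even share, and the lowest bin holds 881 genes, fewer than any other.

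The genes with the smallest p are given below as values, since each had an adjusted p of 0.991 in edgeR's quasi-likelihood test with Benjamini-Hochberg adjustment. They are the 8 in each direction that had a symbol and the same sign in all 3 cows. Among the 8 with higher values was NR1I3 (ENSBTAG00000009215), which encodes the constitutive androstane receptor, a nuclear receptor of xenobiotic and steroid clearance. It measured 0.143, 0.139 and 0.168 CPM in the control libraries of cows D, E and F, and 0.739, 1.34 and 0.988 CPM after P4. The groups did not overlap, and the difference was 2.73 ± 0.50 (log2 ± SE), or 6.63-fold. These levels rest on few reads, 4, 4 and 6 counts in the controls and 21, 46 and 32 after P4. In the 6 libraries 78.9% to 82.2% of the counts from 1 to 20 were even numbers; whether both reads of a pair were counted is not known, and the number of fragments behind a low count may be smaller than the count. On day 4 of the control cycle NR1I3 stood at 0.850, 0.790 and 1.19 CPM, near its level after P4.

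The other higher genes differed less. ZKSCAN8, a zinc finger gene, measured 8.56, 11.5 and 10.8 CPM in the controls and 16.9, 17.1 and 19.5 CPM after P4, a difference of 0.80 ± 0.17. NEK8, a kinase of the primary cilium, measured 33.2, 35.6 and 27.2 CPM against 47.2, 53.9 and 49.8 CPM (0.65 ± 0.14). ULK1, the kinase that starts autophagy, measured 50.3, 54.7 and 49.1 CPM against 59.7, 92.9 and 78.3 CPM (0.57 ± 0.14). In all 3 of these genes the lowest treated library lay above the highest control library, and in ULK1 cow D lay closest to the controls. On day 4 of the control cycle ZKSCAN8, NEK8 and ULK1 had means of 20.3, 50.9 and 81.9 CPM. Their means were 10.3, 32.0 and 51.4 CPM in the day 7 controls and 17.9, 50.3 and 77.0 CPM after P4. These genes and NR1I3 were picked by the contrast with the same day 7 controls, which favours genes with extreme controls. Nearness of the day 4 level to the treated level can follow in part from that choice, and it was not tested. SASH1, a signalling scaffold, differed by 0.72 ± 0.15 and also had groups apart. Its day 4 mean of 45.9 CPM lay between the control mean of 35.2 CPM and the treated mean of 57.1 CPM. RNF123, a ubiquitin ligase subunit (0.61 ± 0.16), and FAM168A (0.88 ± 0.23) overlapped between the groups. C16orf96 differed by 2.16 ± 0.55 from 2 counts in each control library, which may stand for fewer fragments.

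The 8 genes with lower values included 3 receptors that macrophages carry. FCGR2B (ENSBTAG00000021842), the inhibitory Fc gamma receptor of B cells and macrophages, measured 36.1, 27.9 and 30.0 CPM in the controls of cows D, E and F and 6.23, 1.31 and 0.803 CPM after P4. The 3 treated values lay far below the controls, a difference of -3.76 ± 0.67 (13.6-fold lower), with 1008, 804 and 1070 counts in the controls and 177, 45 and 26 after P4. CD14 (ENSBTAG00000015032), the co-receptor for lipopolysaccharide on monocytes and macrophages, measured 85.9, 121 and 54.3 CPM against 22.3, 8.48 and 10.5 CPM (-2.69 ± 0.63, 6.43-fold lower). C5AR1 (ENSBTAG00000020872), the receptor for complement fragment C5a, measured 78.3, 82.9 and 35.2 CPM against 33.7, 8.51 and 7.66 CPM (-2.17 ± 0.52). In all 3 genes the treated and control groups did not overlap.

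Other genes of this set are expressed in epithelium and stroma as well as in leukocytes. LGALS3, the glycan-binding lectin galectin-3, was even among the controls at 181, 187 and 176 CPM and measured 101, 68.3 and 55.7 CPM after P4 (-1.31 ± 0.30). CD44, the hyaluronan receptor, measured 158, 240 and 147 CPM against 94.4, 47.5 and 22.4 CPM (-1.82 ± 0.43). RNASET2, a lysosomal ribonuclease, measured 48.5, 62.2 and 54.5 CPM against 31.8, 28.7 and 21.3 CPM (-1.01 ± 0.23). Groups were apart in these 3 as well, with cow D the least displaced. HSD17B14, a hydroxysteroid dehydrogenase, measured 3.83, 0.797 and 3.70 CPM against 2.08, 0.174 and 0.525 CPM (-1.89 ± 0.45), with overlap because cow E was low in both cycles. SPINK1, a trypsin inhibitor, rested on 1 library: its control values were 0.287, 6.93 and 1387 CPM, and its treated values were 0.0704, 0 and 2.47 CPM. Its difference of -8.31 ± 1.97 became -3.60 without the control library of cow F.

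**Figure D2:**
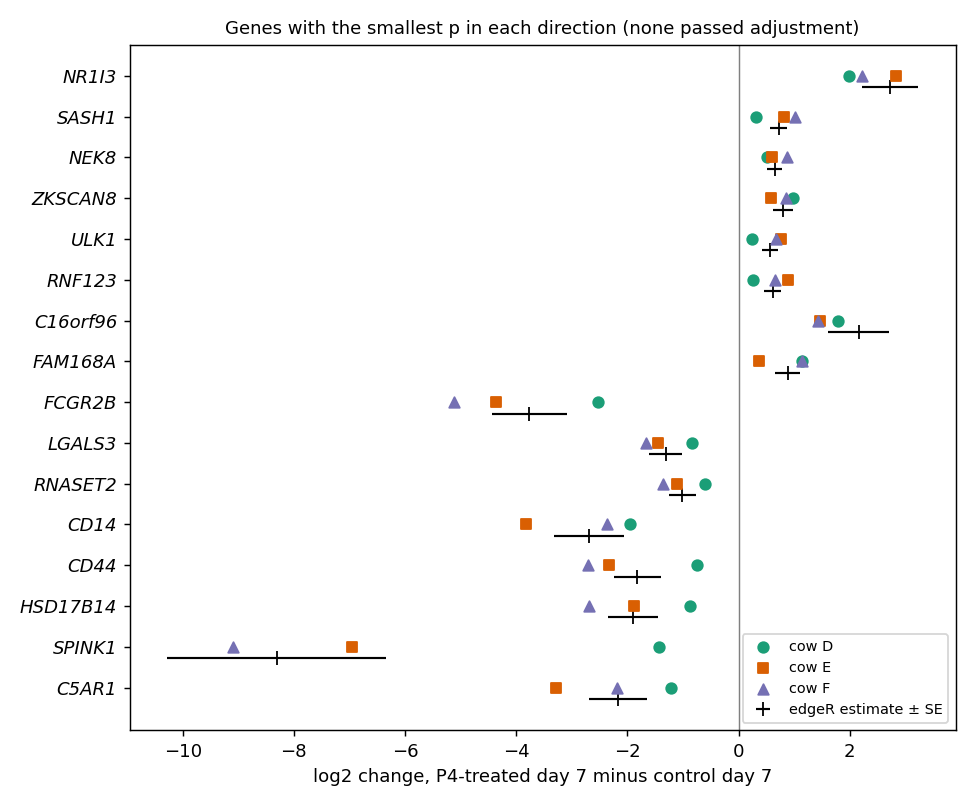
Log2 change from control day 7 to P4-treated day 7 (horizontal axis) in cows D, E and F for the 8 genes with the smallest p in each direction, with the edgeR estimate ± SE under the points. FCGR2B spans -5.13 to -2.52 and NR1I3 2.00 to 2.84, and in SPINK1 cow D lies far from the other 2 cows.

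DESeq2, run with the same cow block, called 3 genes higher and 20 lower, 23 in all, where edgeR called 0 and limma voom called 0. These genes were picked out after their values were seen. Of the 23, 8 are among the 16 genes above: NR1I3 and ZKSCAN8 on the higher side, and FCGR2B, CD14, C5AR1, CD44, LGALS3 and HSD17B14 on the lower side. For FCGR2B the DESeq2 adjusted p was 6.58e-07, and over all alternatives it ranged from that value to 1. Another 3 of the 23 had counts in only 1 of the 6 libraries: EDARADD, ENSBTAG00000020242 and ENSBTAG00000076366. The remaining 20 all had an unadjusted edgeR p under 0.01.

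Several of the genes called by DESeq2 alone had groups that did not overlap. FTH1, the heavy chain of the iron store ferritin, was close to constant in the controls at 1058, 1004 and 1031 CPM and measured 630, 322 and 325 CPM after P4 (edgeR -1.31 ± 0.32). KCNN4, a calcium-activated potassium channel, measured 8.60, 12.9 and 9.61 CPM against 2.57, 0.174 and 0.741 CPM (-3.68 ± 0.96). FUT1, a fucosyltransferase of H-antigen synthesis, measured 39.9, 14.1 and 207 CPM against 13.3, 1.86 and 6.15 CPM (-3.44 ± 0.86). Treated values lay below all controls in these 3 genes, narrowly in FUT1, whose difference was -2.0 without the control library of cow F. FCAR, an Fc receptor of myeloid cells, measured 1.5, 3.88 and 0.336 CPM against 0.0704, 0.174 and 0 CPM. ADGRG6, an adhesion receptor, differed by -1.48 ± 0.36, and LHFPL2 by -1.47 ± 0.35. MED25, a Mediator subunit, was the third gene on the higher side, at 152, 193 and 181 CPM against 210, 270 and 229 CPM (0.43 ± 0.13).

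**Figure D3:**
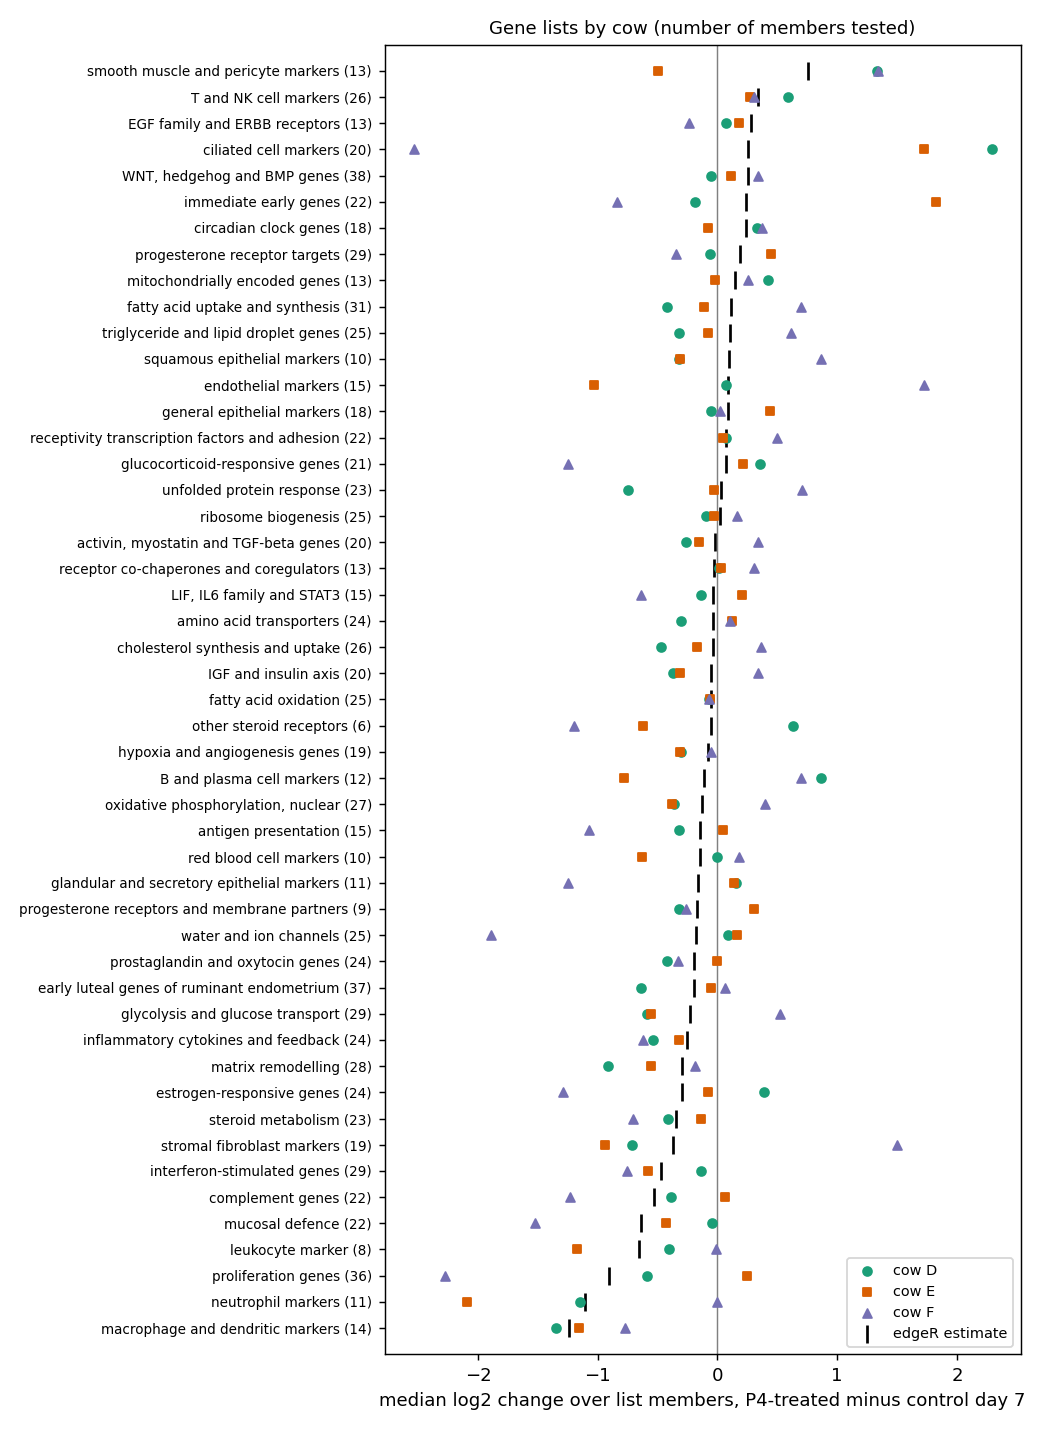
Median log2 change over the members of each of 49 gene lists (horizontal axis), P4-treated minus control day 7, in cows D, E and F, with the median of the edgeR estimates as a bar. Macrophage markers lie below 0 and T and NK cell markers above 0 in all 3 cows, while ciliated cell markers run from -2.54 in cow F to 2.29 in cow D.

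None of the 49 gene lists held a called gene (0 of 49 lists). In 14 lists the median had 1 sign in all 3 cows, negative in 11 and positive in 3. In 17 lists cow F lay on the opposite side of 0 from cows D and E. In bulk samples such as these, fewer cells of a type and less RNA per cell cannot be told apart.

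Macrophage and dendritic cell markers had the lowest median of the 49 lists. Of 14 members tested, 0 were called and 13 had a negative estimate, and the median was -1.24 against 0.03 over all genes. All 3 cows were lower in 7 members, against 9.48% of all genes. An unadjusted edgeR p under 0.05 on the lower side was reached by 6, against 2.15% of all genes. The median was -1.35 in cow D, -1.16 in cow E and -0.78 in cow F. Summed over the list, the control libraries held 439, 476 and 136 CPM and the treated libraries 161, 177 and 71.2 CPM. Each cow was lower after P4, but the control library of cow F was already below the treated libraries of cows D and E. On day 4 the sums were 225, 232 and 355 CPM. The list median was -1.44 without the control library of cow F and -0.78 without the treated library of that cow.

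Within this list the differences were uneven. CD163, the haemoglobin scavenger receptor of macrophages, measured 45.4, 15.7 and 3.44 CPM in the controls and 10.6, 0.930 and 0.432 CPM after P4 (-2.93 ± 0.99). MRC1, the mannose receptor, measured 37.6, 26.3 and 4.37 CPM against 7.25, 9.47 and 3.55 CPM (-1.60 ± 0.59), and MSR1, a scavenger receptor, 22.1, 18.0 and 5.38 CPM against 8.03, 5.37 and 2.90 CPM (-1.43 ± 0.45). In these 3 genes every cow was lower after P4, and the groups overlapped through the low control of cow F. TYROBP and FCER1G, signalling adaptors of myeloid cells, differed by -1.73 ± 0.71 and -1.36 ± 0.57. The complement subunits C1QA and C1QB, which resident macrophages make, differed by -0.41 ± 0.55 and -0.14 ± 0.51, and in both cow E was higher after P4. CSF1R, the growth factor receptor of macrophages, differed by -0.87 ± 0.51 and was at 15.7 CPM in the control and 16.1 CPM in the treated library of cow F.

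**Figure D4:**
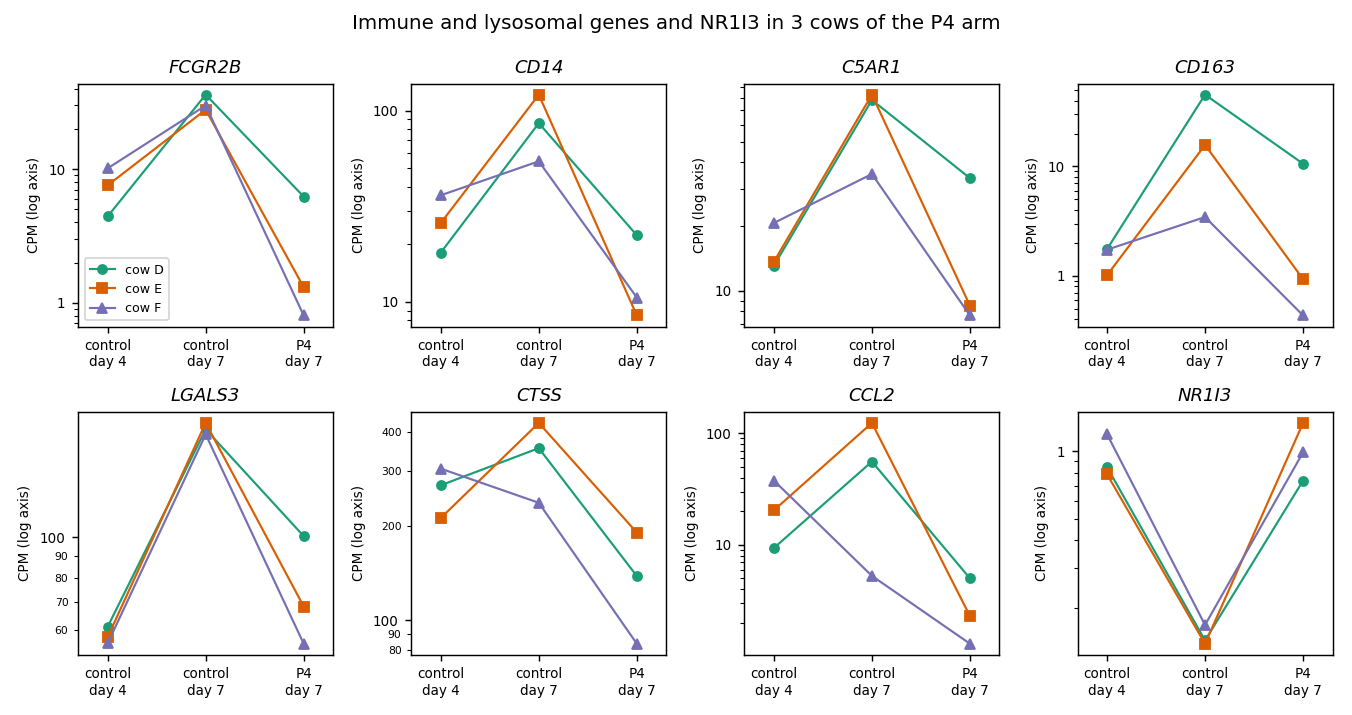
CPM on a log axis of 8 genes in cows D, E and F at control day 4, control day 7 and P4-treated day 7, with 1 line per cow. The control day 7 libraries of FCGR2B, CD14, C5AR1, CD163 and LGALS3 are the highest of each cow's 3, and in NR1I3 they are the lowest (0.139 to 0.168 CPM). FCGR2B, CD14, C5AR1, LGALS3 and NR1I3 were picked by the contrast that uses these control libraries.

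Neutrophil markers were lower mainly in cows D and E, with list medians of -1.15 in cow D, -2.09 in cow E and close to 0 in cow F. The list sum was 550, 309 and 78.5 CPM in the controls and 118, 46.9 and 63.2 CPM after P4. In all 3 cows 5 of 11 members were lower, against 9.48% of all genes. S100A12, a calcium-binding protein of neutrophils, measured 348, 145 and 39.7 CPM against 39.7, 15.1 and 24.3 CPM (-2.81 ± 1.38). MMP9, a gelatinase that neutrophils release, measured 6.74, 52.6 and 2.63 CPM against 1.76, 1.10 and 0.865 CPM (-3.51 ± 1.75). The MMP9 difference was -1.67 without the control library of cow E and -5.42 without the treated library of cow D. S100A8, another marker of this list, was 6.61 CPM in both libraries of cow F. The pan-leukocyte list had a negative estimate in 8 of 8 members (median -0.66), but PTPRC, the CD45 antigen on all leukocytes, was close to level at 65.5, 72.1 and 36.6 CPM against 62.4, 48.5 and 49.4 CPM (-0.12 ± 0.32).

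T and NK cell markers differed in the opposite direction and by little. The estimate was positive for 25 of 26 members, the median was 0.34 and 0 were called. All 3 cows were higher in 14 members, against 9.96% of all genes, and lower in 1, against 9.48%. The list sum was 106, 137 and 140 CPM in the controls and 152, 166 and 159 CPM after P4, so that the groups did not overlap, while day 4 sums were 228, 230 and 489 CPM. IL2RB, the beta chain of the interleukin-2 receptor, measured 12, 10.8 and 9.89 CPM against 21.6, 14.1 and 17.6 CPM (0.68 ± 0.21). PRF1, the pore-forming protein of cytotoxic granules, measured 6.41, 6.96 and 4.65 CPM against 10.0, 9.91 and 11.5 CPM (0.76 ± 0.36). Both had groups apart, whereas CD3E, a chain of the T cell receptor complex, overlapped at 7.88, 13.6 and 14.5 CPM against 11.8, 16.9 and 15.1 CPM (0.33 ± 0.20). NKG7 was the single member with a negative estimate (-0.26 ± 0.34).

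Structural cell types varied as well. Of 13 smooth muscle and pericyte markers 12 had a positive estimate (median 0.76), with medians of 1.33, -0.50 and 1.34 in cows D, E and F. Their sum was 304, 279 and 148 CPM in the controls against 433, 467 and 373 CPM after P4, without overlap. By gene, 0 of 13 had groups apart (3.34% higher and 2.41% lower over all genes). In all 3 cows 1 was higher (9.96% over all genes). In cow E 9 markers were lower although the sum was higher. Of 19 stromal fibroblast markers 14 had a negative estimate (median -0.37). Their sum was 4253, 2042 and 375 CPM in the controls and 2399, 830 and 494 CPM after P4, lower in cows D and E and higher in cow F. The part of these cell types in the gene values above and below was not tested.

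Among inflammatory and matrix-degrading genes both signs occurred, and 0 were called. Of 24 cytokine and feedback genes, 16 had a negative and 8 a positive estimate, with a median of -0.25. All 3 cows were lower in 8 of them, against 9.48% of all genes, and higher in 0. An unadjusted p under 0.05 was reached by 5, all on the lower side, against 2.15% of all genes. CCL2, the chemokine that draws monocytes, measured 55.7, 124 and 5.26 CPM in the controls and 5.0, 2.3 and 1.30 CPM after P4 (-4.18 ± 1.63). Every treated value lay below every control, but narrowly for 5.0 CPM in cow D against 5.26 CPM in the control of cow F. CXCL2, a neutrophil chemokine, measured 29.3, 14.3 and 7.98 CPM against 10.4, 2.53 and 2.22 CPM (-1.91 ± 0.51). IL1RN, the interleukin-1 receptor antagonist, measured 44.4, 110 and 30.0 CPM against 21.6, 17.8 and 9.88 CPM (-1.76 ± 0.60). CXCL2 overlapped between the groups, and IL1RN did not. CXCL5, another neutrophil chemokine, differed by -2.39 ± 0.66, and CXCL8 by -2.77 ± 1.24 with cow F level.

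Of 28 matrix remodelling genes, 20 had a negative and 8 a positive estimate, with a median of -0.30. All 3 cows were lower in 8 (9.48% over all genes) and higher in 0, and 7 had an unadjusted p under 0.05 on the lower side (2.15% over all genes). CTSS, the lysosomal protease cathepsin S of antigen-presenting cells, measured 356, 428 and 238 CPM against 138, 191 and 84.0 CPM, with the groups apart (-1.32 ± 0.36). CTSB, cathepsin B, measured 770, 1078 and 496 CPM against 372, 460 and 460 CPM (-0.82 ± 0.34). MMP13, a collagenase, measured 0.215, 1.97 and 0.224 CPM in the controls and 0, 0.116 and 0.0618 CPM after P4. The list sum for macrophage markers, given above, moved the same way in each cow, and its part in these gene values was not tested.

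The nuclear receptor through which P4 acts was nearly level, and membrane receptors differed in both directions. PGR (the progesterone receptor) measured 44.7, 32.0 and 44.4 CPM in the controls of cows D, E and F and 47.4, 31.4 and 37.1 CPM after P4, and 108, 71.0 and 74.2 CPM on day 4. The treated and control values interleaved, and the difference was -0.07 ± 0.25 with a 95% interval from -0.62 to 0.48. ESR1, the estrogen receptor, measured 207, 282 and 541 CPM against 387, 281 and 284 CPM, higher in cow D, level in cow E and lower in cow F (-0.05 ± 0.31, interval -0.73 to 0.62). Of 9 progesterone receptor and membrane partner genes, 1 was higher and 1 lower in all 3 cows (9.96% and 9.48% over all genes). PAQR5, a membrane progesterone receptor, was the higher one at 1.43, 4.50 and 2.86 CPM against 1.72, 8.08 and 4.01 CPM (0.58 ± 0.37). PAQR7, another membrane progesterone receptor, measured 2.76, 1.94 and 4.51 CPM against 1.87, 2.41 and 1.30 CPM, lower in cows D and F and higher in cow E (-0.69 ± 0.39).

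Targets of steroid receptors had no direction shared by the 3 cows. Of 29 progesterone receptor targets, 21 had a positive estimate, and 1 was higher and 0 lower in all 3 cows (9.96% and 9.48% over all genes). The median was 0.19, but the medians by cow were -0.07, 0.45 and -0.34. Of 24 estrogen-responsive genes, 20 had a negative estimate and 0 had 1 sign in all 3 cows, and the median was -0.30, with 0.39, -0.08 and -1.29 by cow. PER1, a clock gene with steroid response elements, measured 119, 111 and 95.2 CPM in the controls and 137, 207 and 163 CPM after P4, with the groups apart (0.65 ± 0.28). FKBP5, the receptor co-chaperone that steroid hormones induce, measured 224, 130 and 240 CPM against 286, 181 and 249 CPM, higher in each cow but with overlap (0.27 ± 0.41). SPP1, which encodes the adhesion protein osteopontin, measured 222, 496 and 16 CPM against 91.6, 2.03 and 23.2 CPM, lower in cows D and E and higher in cow F.

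Genes of the early luteal programme showed no common direction. Of 37 list members, 0 were higher and 4 lower in all 3 cows (9.96% and 9.48% over all genes). The medians were -0.64, -0.06 and 0.06 in cows D, E and F. DGAT2, the last enzyme of triglyceride synthesis, stood at 2.77, 1.27 and 3.08 CPM on day 4, 281, 863 and 193 CPM on control day 7, and 125, 476 and 248 CPM after P4. It was lower than control in cows D and E and higher in cow F, with a difference of -0.60 ± 0.57 and an interval from -1.85 to 0.64. ANPEP, an aminopeptidase of the epithelial surface, measured 7901, 4976 and 3029 CPM against 4607, 3550 and 8399 CPM, again with cow F opposite to the others. CXCL14, a chemokine of the glands, had groups apart, at 18.5, 36.3 and 23.5 CPM against 12.2, 5.69 and 16.5 CPM (-1.29 ± 0.90). LGALS9, galectin-9, measured 28.3, 51.2 and 30.6 CPM against 19.9, 19.3 and 9.48 CPM (-1.15 ± 0.41), also with groups apart.

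Some luteal genes differed by large amounts in opposite directions between cows. PTGS2, the inducible cyclooxygenase of prostaglandin synthesis, measured 214, 174 and 37.8 CPM in the controls and 8.24, 908 and 28.3 CPM after P4, so that cow D was far lower and cow E far higher (-0.07 ± 1.69). TINAGL1, a basement membrane protein, repeated that pattern at 244, 230 and 41.6 CPM against 7.11, 483 and 19.0 CPM. MSTN, the growth factor myostatin, measured 26.8, 59.2 and 1.90 CPM against 0.774, 145 and 6.42 CPM. In these 3 genes cow D was lower after P4 and cow E higher. LTF, the antimicrobial protein lactoferrin, measured 1388, 172 and 10828 CPM against 7884, 155 and 746 CPM, higher in cow D and lower in cow F. OXTR, the oxytocin receptor, measured 199, 296 and 423 CPM against 131, 653 and 90.9 CPM. With intervals as wide as -3.79 to 3.65 for PTGS2, an effect of P4 in either direction was not detectable in 3 cows.

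**Figure D5:**
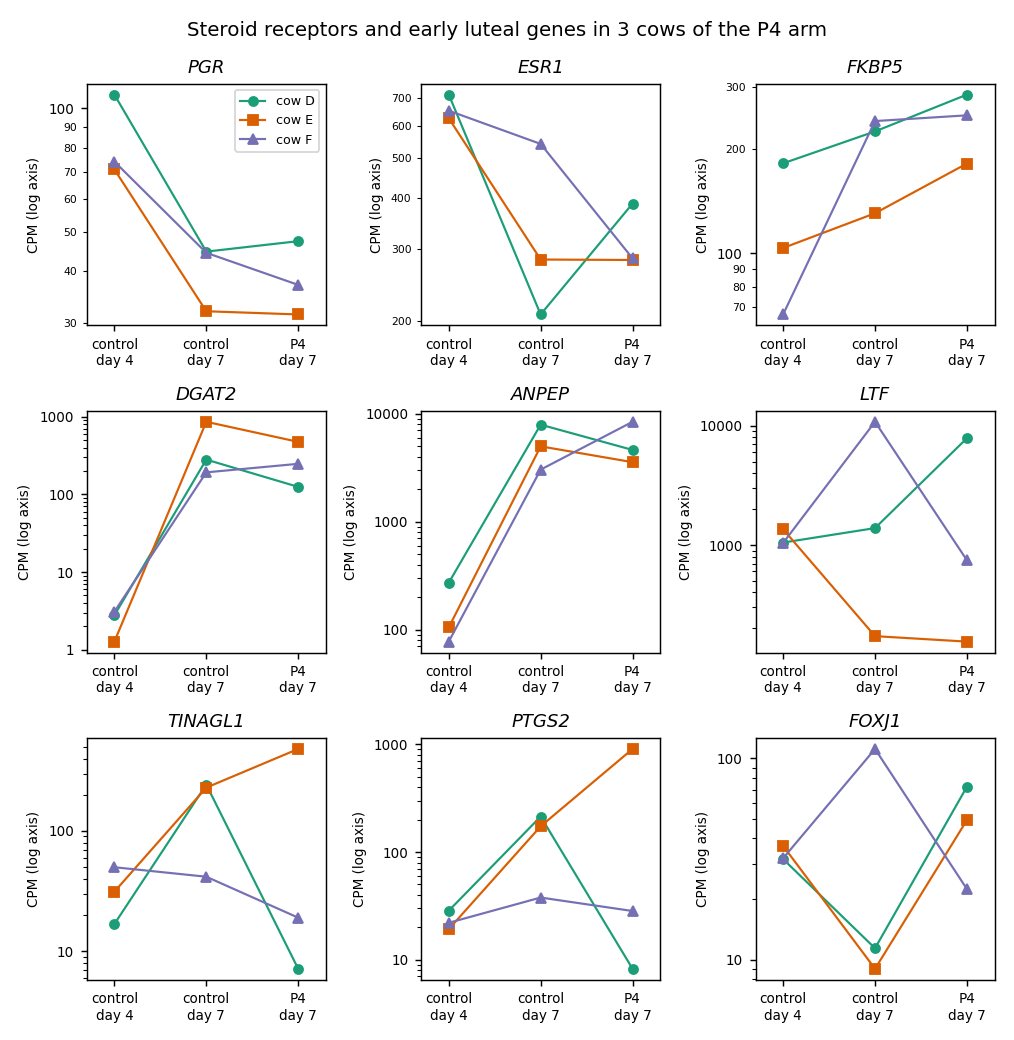
CPM on a log axis of 9 genes in cows D, E and F at control day 4, control day 7 and P4-treated day 7, with 1 line per cow. PGR stays at 31.4 to 47.4 CPM in all 6 day 7 libraries, whereas PTGS2 spans 8.24 to 908 CPM after P4.

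The 37 genes fixed for description include PGR, ESR1, FKBP5, DGAT2, PTGS2, MKI67 and FOXJ1. Of the 37, 1 was higher and 3 were lower in all 3 cows (9.96% and 9.48% over all genes). In edgeR 0 had an unadjusted p under 0.05, against 4.49% of all genes. The 95% interval lay within -1 and 1 for 11 of the 37.

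Proliferation and cilia genes varied between cows and single libraries. Of 36 proliferation genes, 33 had a negative estimate and the median was -0.91, but the medians by cow were -0.59, 0.25 and -2.28, and without the control library of cow F the median was -0.22. MKI67, the standard marker of cycling cells, measured 14.9, 30.0 and 30.2 CPM in the controls against 4.72, 36.5 and 6.48 CPM after P4, and 167, 458 and 227 CPM on day 4. RRM2, a ribonucleotide reductase subunit, was lower in all 3 cows at 5.88, 5.20 and 23.1 CPM against 1.55, 3.25 and 1.11 CPM (-2.40 ± 0.87). FOXJ1, the master regulator of motile cilia, measured 11.4, 9.01 and 111 CPM against 72.3, 49.4 and 22.4 CPM. The 20 ciliated cell markers had medians of 2.29 in cow D, 1.73 in cow E and -2.54 in cow F. Their median over cows was 0.25, and 2.01 without the control library of cow F, whose list sum of 867 CPM was the highest of the 6 libraries.

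Steroid metabolism, glycolysis, growth factor and interferon lists held further genes with groups apart or 1 sign in every cow. Of 23 steroid metabolism genes, 8 were lower (9.48% over all genes) and 0 higher in all 3 cows (median -0.35). Among the 8 was CYP2S1, a cytochrome P450, at 13.8, 33.9 and 35.1 CPM against 10.4, 17.1 and 14.2 CPM (-0.91 ± 0.26). Of 29 glycolysis and glucose transport genes, 6 were lower in all 3 cows (9.48% over all genes) and 0 higher, with medians of -0.59 in cow D, -0.55 in cow E and 0.53 in cow F. ALDOC, an aldolase, measured 7.74, 13.3 and 10.0 CPM against 5.28, 5.43 and 3.89 CPM (-1.06 ± 0.32), and EGLN3, an oxygen-sensing prolyl hydroxylase from the hypoxia list, 8.42, 6.93 and 9.63 CPM against 4.96, 1.66 and 2.10 CPM (-1.58 ± 0.43). Both had every treated library below every control. TGFBR2, the type II receptor for TGF-beta, measured 40.8, 53.7 and 37.5 CPM against 34.8, 22.8 and 22.5 CPM (-0.72 ± 0.19), and its ligand TGFB1 25.5, 30.0 and 20.8 CPM against 19.5, 11.1 and 11.2 CPM (-0.89 ± 0.34). Their groups were apart as well. Their list was balanced: of 20 activin, myostatin and TGF-beta genes, 10 had a positive and 10 a negative estimate (median -0.02). In all 3 cows 3 were higher and 3 lower (9.96% and 9.48% over all genes). Of 29 interferon-stimulated genes, 27 had a negative estimate and 12 were lower in all 3 cows, against 9.48% of all genes. The list median was -0.47, but in cow D it was -0.14 and 13 members were higher there. IFIT5 differed by -0.47 ± 0.14.

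A few genes of other lists had higher values. PTCH1, the hedgehog receptor and pathway target, measured 25.1, 34.8 and 19.4 CPM in the controls and 30.1, 41.9 and 41.6 CPM after P4 (0.54 ± 0.17). ACOX3, an enzyme of peroxisomal fatty acid oxidation, measured 38.2, 38.9 and 36.5 CPM against 47.9, 56.3 and 45.5 CPM (0.39 ± 0.12). ACOX3 had groups apart and PTCH1 did not. In their lists the directions were mixed, with a positive estimate for 21 of 38 WNT, hedgehog and BMP genes and for 12 of 25 genes of fatty acid oxidation. DUOX2, an oxidase of mucosal defence, measured 0, 0.0693 and 0.224 CPM against 0.211, 0.988 and 1.61 CPM, while 19 of the 22 genes of its list had a negative estimate (median -0.64).

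The response was set against that of the 17-OHPC/P4 arm, which shares no library with it and had 0 called genes (850 at an unadjusted edgeR p under 0.05, 4.33%). That arm also received 10 mg of P4, after a control cycle that was brushed. Signs shared or not shared by the arms therefore cannot show whether a value belongs to P4 alone, or set treatment apart from cycle order. The difference of the responses was called for 0 of 19638 genes (0%) by edgeR's quasi-likelihood test with Benjamini-Hochberg adjustment, with 492 at an unadjusted p under 0.05 (2.51%). The 8 lower genes mostly had the same sign in that arm: 7 of 8 were negative and 6 were lower in all 3 of its cows, against 20.9% of all genes. FCGR2B differed there by -2.30 ± 0.62, CD14 by -2.01 ± 0.62, C5AR1 by -1.78 ± 0.50, CD44 by -1.69 ± 0.42 and RNASET2 by -0.96 ± 0.24. The P4 minus 17-OHPC/P4 difference was -1.46 ± 0.87 for FCGR2B and -0.05 ± 0.33 for RNASET2.

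The 8 higher genes did not recur in that way. In the 17-OHPC/P4 arm 2 of 8 were positive and 0 were higher in all 3 cows, against 19.4% of all genes. NR1I3 differed by -0.35 ± 0.46 there, and the difference of the responses was 3.08 ± 0.68, which did not pass adjustment. SASH1 differed by -0.07 ± 0.15 (difference of the responses 0.79 ± 0.21). On the lower side HSD17B14 (0.21 ± 0.43 in that arm) and ADGRG6 (0.26 ± 0.34) were among those that differed most between the arms. T and NK cell markers had a median of -0.15 in the 17-OHPC/P4 arm, with 9 of 26 lower in all 3 cows, and macrophage markers -0.54 with 2 of 14. Over all genes 20.9% were lower in all 3 cows of that arm, so the macrophage count was not above that share.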

How the data were processed

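Poly(A) RNA from cytobrush samples was sequenced, and the authors deposited counts per gene, which the whole-number values of the file show to be unnormalized. DESeq2, cutadapt, STAR, FastQC and featureCounts are the tools listed, without versions or parameters, per the submitters' processing notes. The genome build, annotation, strand and handling of read pairs were not given in the sources used here, so overlapping, antisense and near-identical genes are uncertain. Of 38001 identifiers, 17715 had no symbol, and those and repeated symbols are named by identifier. The reference table at hand matched 0 identifiers, so coordinates and sequences are not given.

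Counts of all 18 libraries were fitted with edgeR 4.0.16 in R 4.3.3 (filterByExpr, TMM, robust quasi-likelihood F test, Benjamini-Hochberg, adjusted p under 0.05 called), with cow as a block, which left 8 residual degrees of freedom. The pairing follows the letter in the sample labels, and each letter was taken as 1 cow. Deviations of control and treated day 7 libraries from their group means correlated at 0.08 (D), 0.36 (E) and -0.07 (F). In the 17-OHPC/P4 arm they correlated at 0.59 (A), 0.43 (B) and 0.72 (C), so likeness within a cow was weak in D and F. The control library of cow F correlated at 0.944 with its own treated library and at 0.962 with that of cow D. No 2 libraries were identical. Changes per cow are differences of log2 CPM with a prior count of 2. The 6 libraries' total counts limit precision for low genes. Contrasts were P4 treated against control day 7 and its difference from the 17-OHPC/P4 arm. DESeq2 1.42.0, limma 3.58.1 (voom), fits without the block, other scalings, no filter, fewer libraries and omission of each library or cow were alternatives. The functions were tested on simulated data with a dispersion below that of these data, whose biological coefficient of variation was 39.4%. That check does not give the power of this comparison.

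Genes were named by rule: the 8 per direction with a symbol, the smallest p and 1 sign in 3 of 3 cows, the 2 members of each list with the smallest p, 37 fixed symbols, and 5 per direction for the difference of responses. The text gives those that carry a comparison, plus list members and DESeq2 calls picked after their values were seen, and results for a few genes are left out. The comparison, the 49 lists and the fixed symbols were chosen with earlier results of these data known.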

Additional observations from a re-analysis of the deposited data

How the results depend on the processing

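Each of 19 alternatives of the P4 comparison was set against the edgeR result of 0 genes called. DESeq2 called 3 higher and 20 lower, and 3 for the difference of the responses (EDARADD, EPHA3 and ENSBTAG00000000524). Leaving out 1 library or cow gave 0 to 1 called higher, 0 to 2 lower and 0 to 1 for the difference of the responses. Without the treated library of cow D the 2 were FCGR2B (-5.00) and LITAF (-1.47), each at an edgeR adjusted p of 0.0345, and 2033 genes had an unadjusted p under 0.05. Without the control library of cow F the 1 was H6PD (1.54, adjusted p 0.0349 by edgeR's quasi-likelihood test), also called for the difference of the responses (1.97), and 1723 genes had an unadjusted p under 0.05. In the full fit LITAF differed by -0.83 and H6PD by 0.80, and both had an adjusted p of 0.991. Omitting all libraries of cow D or of cow F gave 1650 and 1895 genes at an unadjusted p under 0.05, against 881 in the full fit. The cause was not tested. The fit with no replicate block, which ignores the pairing by cow, called 0 genes, with 596 at an unadjusted p under 0.05, and changed no call. The 6 libraries alone gave 297 such genes with the block and 264 with no block, and the 9 libraries of the arm gave 476, each with 0 called; these fits hold fewer samples. Of 75 genes named for this comparison in the text, 63 kept their sign under every alternative run, the 16 with the smallest p among them. The other 12 changed sign. Leaving out a library or cow gave PGR -0.14 to 0.060, ESR1 -0.45 to 0.44, PTPRC -0.46 to 0.23, C1QB -0.69 to 0.32, DGAT2 -1.04 to 0.050 and ANPEP -0.64 to 0.67. It gave OXTR -1.59 to 0.50, LTF -2.86 to 1.78, TINAGL1 -3.80 to 0.43, MSTN -2.43 to 1.41, PTGS2 -2.77 to 1.55 and FOXJ1 -0.32 to 2.57. With no replicate block MSTN came to 0.80 and PTGS2 to 1.15, and in the 6 libraries alone with no block to 0.77 and 1.14. With limma voom ESR1 came to 0.018 and MSTN to 0.37. List medians kept their sign when 1 library or cow was left out for macrophage (-1.50 to -0.78), neutrophil (-1.92 to -0.84), T and NK cell (0.20 to 0.61), inflammatory (-0.77 to -0.24), matrix (-0.65 to -0.09), interferon (-0.86 to -0.19) and proliferation genes (-1.52 to -0.18), and changed it for ciliated cell markers (-0.96 to 2.12). Depth limits NR1I3, C16orf96, MMP13, FCAR and DUOX2, which had few counts in at least 1 group.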
